A study of Mus musculus with 9 samples.

Results

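Fibroblasts cultured from primed paws, which had met monosodium urate (MSU) crystals on days 0 and 9, were compared with fibroblasts from non-primed paws, which had met them on day 9 only. The comparison used the 3 primed and 3 non-primed libraries of the 9 in the series and left out the 3 libraries from naive paws, which had no injection. Its features were the genes that varied and had a mean value of at least 3 over the 6 libraries, 15604 of the 47729 in the table. All cultures came from wild-type (WT) BALB/c mice, were grown for 5 passages as synovial fibroblasts from digested paws, and are labelled day 18. MSU is the crystal that forms in gouty joints, and the study asked whether an earlier bout of crystal inflammation leaves a trace in the fibroblasts of the joint. Primed paws were left paws and non-primed paws were right paws, so the extra injection and the side of the body cannot be told apart. Each library is a separate paw, but a primed and a non-primed paw may belong to the same mouse and no label names the animal, so p-values measure only the spread between these samples, which may be technical. Levels are given as rlog values (log2), differences are primed minus non-primed with their standard error (SE) from limma, and the read depth is unknown.

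Synovial fibroblasts line and support the joint membrane, secrete its matrix and matrix proteases, and answer cytokines from resident and infiltrating immune cells. They are also a local source of complement, a cascade of plasma proteases whose C1 complex cleaves C4 and C2, and whose central component C3 yields a peptide that acts through the receptor C3ar1. Interferons raise a broad set of antiviral genes and the MHC class I pathway, which shows peptides to T cells. Lysosomes, antioxidant enzymes, glycolysis, HIF1A and mTOR are other systems that inflamed fibroblasts are known to adjust.

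No gene passed the test. Of 15604 genes, 0 (0%) had an adjusted p below 0.05 in limma, the lowest adjusted p being 0.904, and 741 (4.75%) had an unadjusted p below 0.05, of which 345 were higher and 396 lower in primed cultures. With the replicate number as a block the numbers were 0, with a lowest adjusted p of 0.483, and 1498 (9.6%). The 3 primed libraries all lay above the 3 non-primed ones for 985 genes (6.31%) and all below for 817 (5.24%). Differences were small: the middle of their distribution, from the 10th to the 90th percentile, ran from -0.197 to 0.163, 127 genes differed by more than 0.5 and 2 by more than 1. The widest positive difference, 1.13 in Agt, the angiotensinogen gene, came from 1 library, since primed 1 stood at 8.73 and the other 5 libraries between 4.85 and 5.73. The other was the pseudogene Znf41-ps, at -1.01 with overlap. With sample weights, which gave non-primed 1 a weight of 7.33 and primed 3 one of 4.78 against 0.25 to 0.89 for the others, 2807 genes passed.

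The primed cultures were spread more widely than the non-primed ones, with a median SD per gene of 0.138 against 0.103. On the first principal component, which held 49.9% of the variance of the 6 libraries, primed 1 lay at one end, at -27.1, and primed 2 at the other, at 24.9. Primed 3 lay at 4.1, between non-primed 1 at -8.4 and non-primed 2 at 15.4. The second component, with 22.9%, placed primed 1 and primed 2 together, at 17.5 and 13.6, and primed 3 among the non-primed libraries, at -9.7. Many gene groups below show the same split, with primed 3 near the non-primed values.

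**Figure D1:**
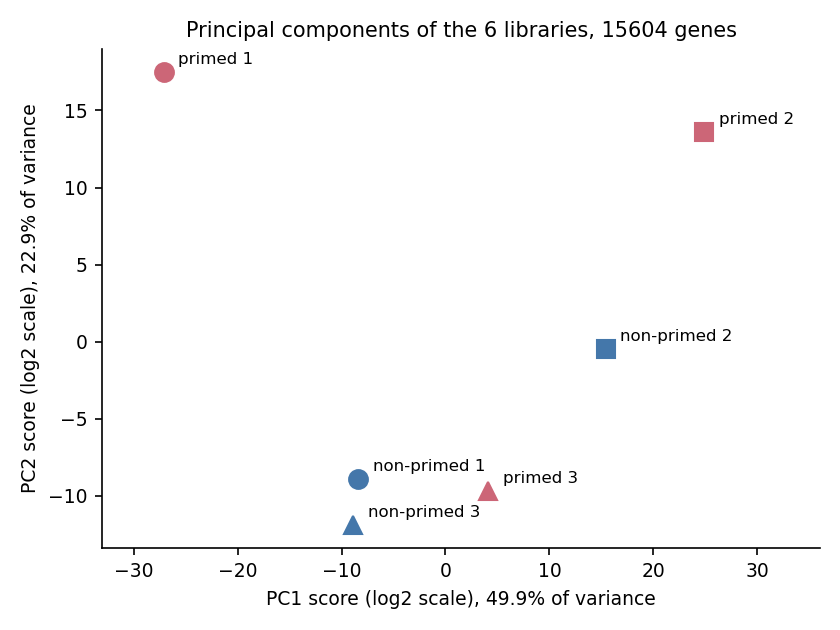
Scores of the 6 libraries on the first principal component (horizontal, 49.9% of the variance) and the second (vertical, 22.9%), computed from the rlog values of 15604 genes on a log2 scale; blue marks non-primed, red marks primed, and the marker shape gives the replicate number. Primed 1 and primed 2 lie at opposite ends of the horizontal axis, and primed 3 lies close to non-primed 1 and non-primed 3 on the vertical axis.

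The labelled cell type was checked against its markers. All 13 fibroblast markers were tested, with Vim at 15.91 to 16.05 and the collagen gene Col3a1 at 17.58 to 19.14 in the 6 libraries. Macrophage markers were also present: 13 of 14 were tested, among them Lyz2, the lysozyme gene, at 15.30 to 16.53, Adgre1, which encodes F4/80, at 10.23 to 11.44, and Ptprc, the common leukocyte antigen, at 9.17 to 10.26. The mean over the 13 was 9.909, 10.415 and 9.986 in non-primed libraries 1 to 3 and 10.263, 10.765 and 9.614 in primed libraries 1 to 3, so the groups overlapped and primed 3 was lowest, and 11 of the 13 were higher in primed cultures with a median of 0.141. That median was -0.145 without primed 2, 0.451 without primed 3 and -0.207 with sample weights, so its sign was not stable. No marker of lymphocytes (9 genes) or of neutrophils and mast cells (10 genes) reached the filter. Of 10 endothelial markers 5 were tested, 3 higher and 2 lower in primed cultures (median 0.018). Among the 5 were Tek at 7.40 to 8.24, Egfl7 at 7.44 to 7.66 and Kdr at 4.46 to 5.49. The endothelial marker Pecam1, at 2.73 to 3.19, was below the filter. The lymphocyte marker Cd3e was listed at 0, but so were mitochondrially encoded genes that every cell uses, such as mt-Co2 and mt-Co3, so a 0 in this table does not show that a gene was silent. In such bulk libraries fewer cells of a type and less RNA per cell cannot be told apart.

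Among the genes higher in primed cultures without overlap, the 12 with the smallest p-values, taken by rule, are given first. Ctsf, which encodes the lysosomal protease cathepsin F (ENSMUSG00000083282, GRCm38 chromosome 19, 4855130 to 4860918), stood at 11.90, 11.94 and 11.91 in non-primed libraries 1 to 3 and at 12.29, 12.37 and 12.27 in primed libraries 1 to 3. The gap between the groups was wider than the spread within them, which is what the rule that took this gene selects for. The difference was 0.39 (SE 0.05, adjusted p = 0.904). Naive cultures lay at 11.77 to 12.28 for this gene and so reached into both groups. Pla1a, which encodes a phospholipase specific for phosphatidylserine (ENSMUSG00000002847, chromosome 16, 38396117 to 38433145), stood at 9.54, 9.55 and 9.59 against 9.86, 10.06 and 9.95. Its difference was 0.40 (SE 0.07), and the 3 naive libraries, with a mean of 8.34, lay below both injected groups.

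Pltp, which encodes a protein that moves phospholipids between lipoproteins, stood at 10.70, 10.60 and 10.75 in non-primed and at 11.24, 11.14 and 10.94 in primed libraries, a difference of 0.42 (SE 0.09). It overlaps the lysosomal protease gene Ctsa on the opposite strand of chromosome 2 (Pltp from 164839518 to 164857711, Ctsa from 164832873 to 164841032), and since the strand setting of the counting is not known, part of their values may be shared. Cox4i2, the gene of a cytochrome oxidase subunit known for its response to low oxygen, stood at 7.48, 7.58 and 7.54 against 8.11, 7.85 and 8.12, and 0.49 (SE 0.11) was the widest difference among these genes. Gm2a, which encodes a cofactor for the breakdown of gangliosides in lysosomes, was higher by 0.29 (SE 0.07) and Gstt1, a glutathione transferase gene with close copies, by 0.37 (SE 0.07). The others taken by the same rule were C1ra, Serping1, Larp6, a binder of collagen mRNA, at 0.37, Ech1, of fatty acid oxidation, at 0.26, the kinesin gene Kif13b at 0.26 and Calcoco1 at 0.26. All 12 had an adjusted p of 0.904.

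**Figure D2:**
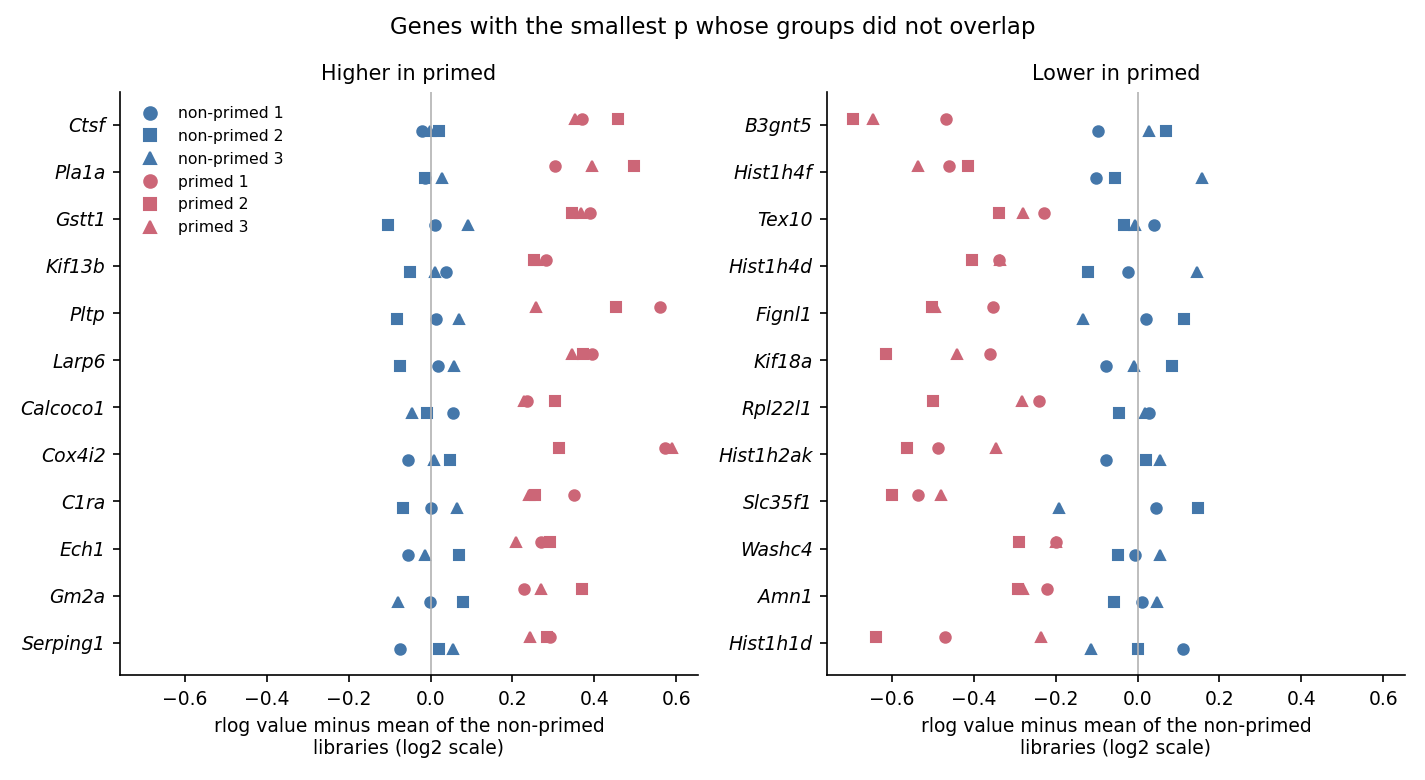
Values of the 12 genes with the smallest p among those higher (left) and lower (right) in primed cultures without overlap, each library shown as its rlog value minus the mean of the 3 non-primed libraries (log2 scale); blue is non-primed, red is primed, shapes are replicate numbers. For Ctsf the 3 primed libraries, at 12.29, 12.37 and 12.27, lie close together, and for Hist1h1d primed 3, at 10.85, lies closest to the non-primed values.

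The genes lower in primed cultures without overlap were led by B3gnt5, which encodes an enzyme that starts a family of glycolipid chains (ENSMUSG00000022686, chromosome 16, 19760208 to 19772753). It stood at 5.01, 5.18 and 5.14 in non-primed and at 4.64, 4.41 and 4.46 in primed libraries, a difference of -0.60 (SE 0.12). Of the 12 lower genes, 4 were histone genes, Hist1h4f, Hist1h4d, Hist1h2ak and Hist1h1d. The others were Kif18a, a kinesin that aligns chromosomes, at -0.47 (SE 0.11), Fignl1, an ATPase of DNA repair by recombination, at -0.45 (SE 0.10), Tex10, at -0.28 (SE 0.06), the ribosomal protein gene Rpl22l1, at -0.34 (SE 0.08), Slc35f1, at -0.54, Amn1, at -0.26, and Washc4, of the actin-nucleating WASH complex on endosomes, at -0.23. All 12 had an adjusted p of 0.904.

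Among the 52 lists, MHC class I presentation had the largest share of members higher without overlap, 7 of 18 (38.9%) beside 6.31% of all genes tested. Of the 18, 15 were higher and 3 lower, 7 had an unadjusted p below 0.05 beside 4.75% of all genes, 0 an adjusted one, and the median difference was 0.234 beside 0.001 for all genes. The heavy chain gene H2-K1 (ENSMUSG00000061232, chromosome 17, 33996017 to 34000347) stood at 13.18, 13.27 and 13.22 in non-primed and at 13.77, 13.75 and 13.33 in primed libraries. Primed 1 and primed 2 were high and primed 3 lay just above the non-primed range, with a difference of 0.39 (SE 0.12). B2m, which encodes the light chain (ENSMUSG00000060802, chromosome 2, 122147686 to 122153083), stood at 14.36, 14.39 and 14.44 against 14.81, 14.73 and 14.54, a difference of 0.29 (SE 0.09). H2-D1, another heavy chain, was higher by 0.41 (SE 0.145), the proteasome activator genes Psme1 by 0.22 and Psme2 by 0.15, and the peptide transporter genes Tap1 by 0.19 and Tap2 by 0.16. H2-T23, a non-classical chain, had the widest difference, 0.48 (SE 0.18), but its groups overlapped. The immunoproteasome genes Psmb8 and Psmb9 stood lower in primed 3 than in any non-primed library, at 9.35 and 7.31, whereas primed 1 stood at 10.05 and 7.99. The mean of the list was 10.850, 10.878 and 10.875 in non-primed and 11.185, 11.168 and 10.876 in primed libraries, so primed 3 lay within the non-primed range. The median was 0.071 with sample weights. H2 genes have close copies, and their single values are uncertain to the extent that copies share reads.

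Interferon-stimulated genes were higher in primed cultures for 25 of 25 members, with a median of 0.199, but 0 members separated the groups and 0 had an unadjusted p below 0.05. With the replicate block, 11 had an unadjusted p below 0.05, beside 9.6% of all genes tested, and 0 an adjusted one. Irf7, a transcription factor that amplifies the interferon response, stood at 8.63, 8.67 and 8.57 in non-primed and at 9.16, 9.99 and 8.58 in primed libraries, so primed 2 was highest and primed 3 was level with the non-primed cultures. Isg15, a ubiquitin-like modifier, stood at 8.35, 8.77 and 8.15 against 8.48, 9.53 and 8.39, and Bst2, which encodes a membrane protein that tethers enveloped viruses, at 10.63, 10.95 and 10.57 against 11.06, 11.59 and 10.64. The differences were 0.62 (SE 0.32), 0.38 (SE 0.31) and 0.38 (SE 0.23). The mean of the list was 8.947, 9.106 and 8.836 in non-primed and 9.260, 9.596 and 8.790 in primed libraries, with primed 2 highest and primed 3 lowest of the 6, as for the macrophage mean, whose part in the result was not tested. The median was 0.087 without primed 2, 0.447 without primed 3 and -0.053 with sample weights. With the macrophage mean as a covariate it was 0.153, which describes that fit and is no test of the macrophage part. Naive libraries had both lower and higher means, 8.485 to 10.173.

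Interferons act largely through a pair of GAAA blocks, the core of the interferon-stimulated response element. The letters GAAA, NN and GAAA in a row, where N is any base, searched on both strands in RefSeq promoter windows of build GRCm38.p6 (250 bases before to 50 after a start), were in 10 of the 17 interferon-stimulated genes with a window (58.8%) and in 4 of the 15 MHC class I genes with one (26.7%: B2m, Erap1, H2-T23 and Psme1), beside 3.99% of 27025 genes and 3.74% of the 11012 tested genes with a window. This motif was chosen after the values were seen, and a match describes letters, not a bound site. The interferon list is made of genes known to answer interferon, so its share describes the list and not the difference between groups. All 10 interferon-stimulated genes with the match overlapped between the groups. Of the 4 MHC class I genes with it, only B2m and Psme1 did not overlap. The stretches before the start of B2m and of 2 interferon-stimulated genes are shown 5′ to 3′ because they carry the match within the upstream bases. Capitals mark it. The B2m stretch is chr2:122147437-122147685 on the plus strand, with the match beginning 139 bases before the RefSeq start. The Isg15 stretch is chr4:156200819-156201068 on the minus strand, with 3 overlapping matches, and the Bst2 stretch is chr8:71537473-71537722 on the minus strand, with 2 overlapping matches.
B2m: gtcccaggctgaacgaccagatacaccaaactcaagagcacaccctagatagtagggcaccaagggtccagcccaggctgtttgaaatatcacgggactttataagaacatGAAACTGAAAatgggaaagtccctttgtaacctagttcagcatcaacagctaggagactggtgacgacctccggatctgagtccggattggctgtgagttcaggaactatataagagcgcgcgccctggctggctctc
Isg15: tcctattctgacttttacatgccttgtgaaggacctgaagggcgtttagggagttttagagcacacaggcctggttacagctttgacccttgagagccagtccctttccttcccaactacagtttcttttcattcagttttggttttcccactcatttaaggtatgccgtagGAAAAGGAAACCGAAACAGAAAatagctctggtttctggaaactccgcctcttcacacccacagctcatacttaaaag
Bst2: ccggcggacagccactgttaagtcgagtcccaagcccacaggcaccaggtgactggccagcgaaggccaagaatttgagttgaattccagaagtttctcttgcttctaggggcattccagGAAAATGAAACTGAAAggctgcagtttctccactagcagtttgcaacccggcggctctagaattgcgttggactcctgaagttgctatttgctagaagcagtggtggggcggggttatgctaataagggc

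Complement genes were higher for 19 of 22 tested members, with a median of 0.225, and 4 (18.2%) separated the groups beside 6.31% of all genes. These 4 were genes of the classical pathway: C1ra and C1s1, the proteases of the C1 complex, Serping1, their inhibitor, and C4b, their substrate. C1ra (ENSMUSG00000055172, chromosome 6, 124512405 to 124523443) stood at 12.29, 12.22 and 12.35 in non-primed and at 12.64, 12.54 and 12.53 in primed libraries, a difference of 0.28 (SE 0.06). Serping1 (ENSMUSG00000023224, chromosome 2, 84765387 to 84775444) stood at 13.04, 13.14 and 13.17 against 13.41, 13.40 and 13.36, a difference of 0.27 (SE 0.06). In both genes primed 3 lay with the other primed libraries, well above the non-primed range. C1s1 was higher by 0.25 (SE 0.08). Naive libraries ranged over both groups for all 4 genes. They lay at 12.04 to 12.96 for C1ra, 12.98 to 13.71 for Serping1, 12.39 to 13.53 for C1s1 and 12.21 to 14.85 for C4b.

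C4b varied more between libraries, at 13.98, 13.46 and 13.84 in non-primed and 14.44, 14.02 and 14.28 in primed cultures, with the number 2 library lowest in each group. Its difference was 0.49 (SE 0.16), and 0.49 with an SE of 0.07 under the replicate block (adjusted p = 0.483). Its near copy C4a is not in the list and was higher by 0.46 (SE 0.13), and both values are uncertain to the extent that the copies share reads. C3 itself stood at 10.61, 10.81 and 10.95 against 11.98, 11.08 and 10.90, so primed 1 alone was well above the non-primed range and primed 3 lay inside it, with a difference of 0.53 (SE 0.27). The receptor genes C3ar1 and C5ar1 differed by 0.07 (SE 0.27) and 0.21 (SE 0.40) and overlapped. So did the C1q chains, which macrophages make, for example C1qa at 10.94, 11.74 and 11.03 against 11.23, 12.33 and 10.81. C1qa, itself one of the macrophage markers, C1qc and C3ar1 ordered the 6 libraries as the macrophage mean did. In C1qb and C5ar1 primed 2 was also highest, but primed 3 was not lowest. The part of macrophage RNA in the list's values was not tested. Without primed 2 the list's median was -0.052 and without primed 3 it was 0.381. It was 0.11 without non-primed 1, 0.147 without non-primed 3, 0.125 with sample weights and 0.085 with the macrophage mean as a covariate.

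**Figure D3:**
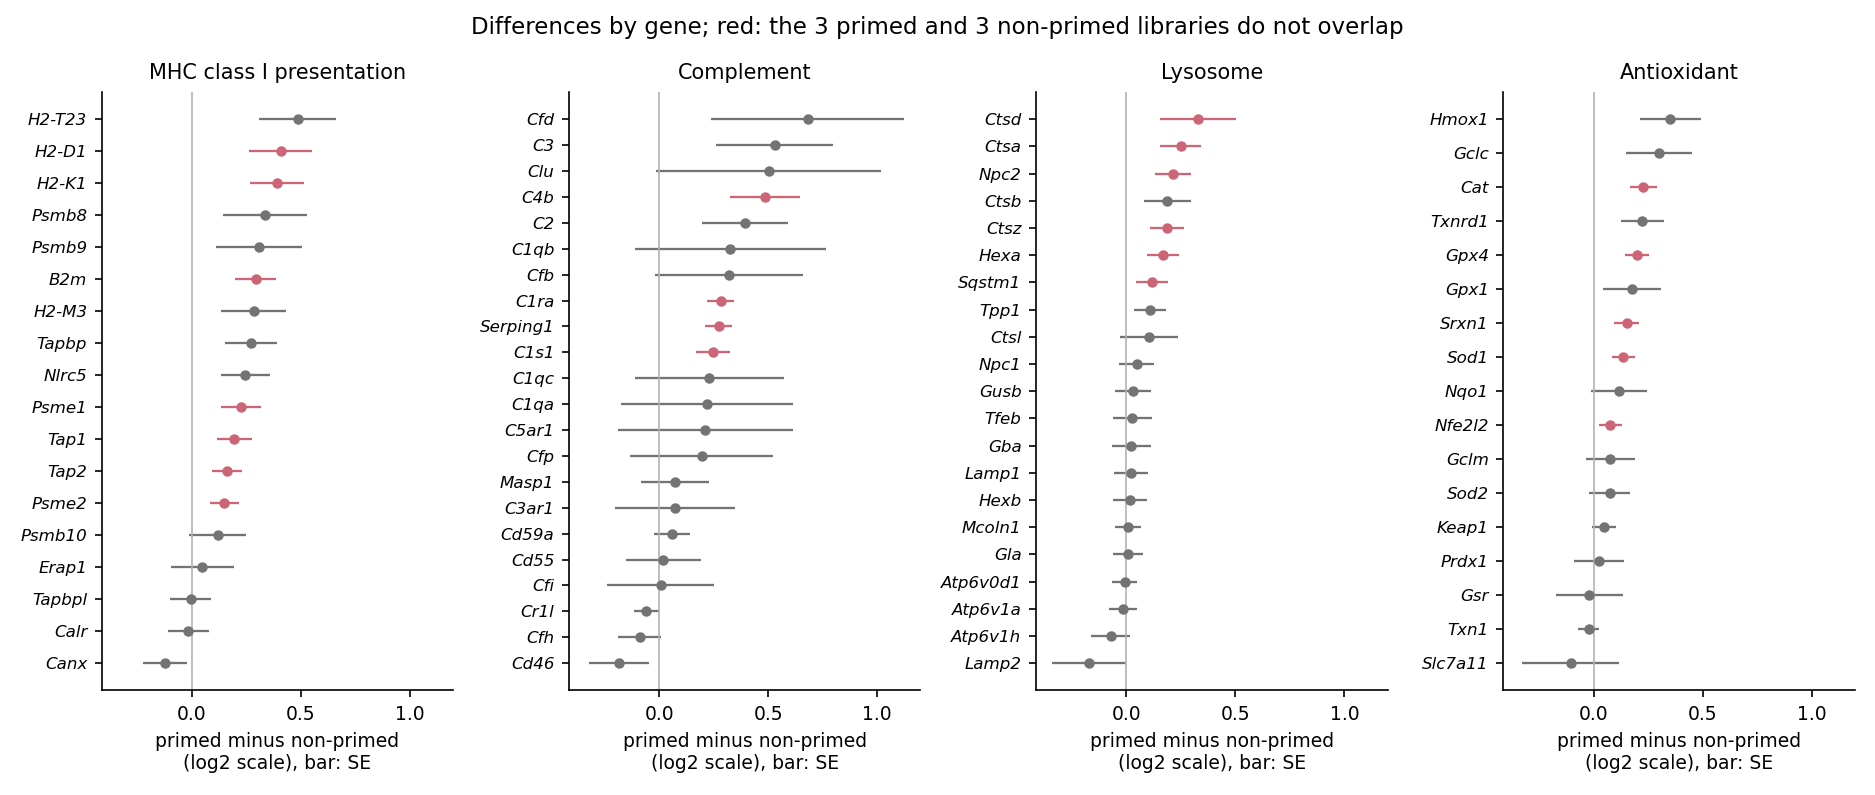
Difference of each tested member of 4 gene lists (horizontal, primed minus non-primed, log2 scale; bars are the SE of the limma fit), sorted by size, with red marking members whose 3 primed and 3 non-primed libraries did not overlap. C1ra and Serping1 combine a difference near 0.3 with a short bar, whereas C3 has a wider difference, 0.53, with a long one.

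Antioxidant and lysosomal genes held further members that separated the groups. In the antioxidant list 14 of 17 were higher (median 0.116) and 5 (29.4%) did not overlap, beside 6.31% of all genes: Cat at 0.23, Gpx4 at 0.20, Srxn1 at 0.15, Sod1 at 0.14 and the regulator Nfe2l2 at 0.08. Cat, the catalase gene, stood at 11.79, 11.75 and 11.90 in non-primed and at 12.05, 12.09 and 11.98 in primed libraries, a difference of 0.23 (SE 0.06). The mean of the list separated the groups, at 11.163, 11.177 and 11.254 against 11.340, 11.305 and 11.306. So did the means of the fatty acid oxidation and HIF1A target lists, also higher in primed cultures. Those of the hyaluronan list and of the keratinocyte and epithelial list separated in the other direction. For 3 libraries against 3 the smallest exact two-sided p is 0.1, so separation of a list mean is weak evidence. Hmox1, which encodes the heme-degrading enzyme, stood at 13.43, 13.64 and 13.53 against 13.60, 14.14 and 13.91 and overlapped through primed 1.

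In the lysosome list 17 of 21 were higher and 6 (28.6%) did not overlap, beside 6.31% of all genes tested, but the median was 0.032, and 0.108 without primed 3, 0.057 without non-primed 3, 0.05 with quantile normalization and -0.009 with sample weights. The 6 were Ctsd, Ctsa, Npc2, Ctsz and Hexa, all genes of proteins inside the lysosome, and the autophagy receptor gene Sqstm1, at 0.33, 0.25, 0.21, 0.19, 0.17 and 0.12. Ctsd, which encodes cathepsin D, stood at 16.66, 16.76 and 16.71 in non-primed and at 16.96, 17.32 and 16.84 in primed libraries, with primed 2 highest, and had a difference of 0.33 (SE 0.17). Ctsa stood at 13.27, 13.46 and 13.24 against 13.53, 13.72 and 13.46, so the lowest primed library lay just above the highest non-primed one. Glb1, the lysosomal beta-galactosidase whose activity is used as a stain for senescent cells and which stands in the arrest and senescence list, was at 11.74, 11.86 and 11.75 against 12.02, 12.18 and 11.97, a difference of 0.27 (SE 0.07). In that list 9 of 18 were higher, 1 (5.56%) did not overlap and the median was -0.014. The letters CACGTG, a core bound by the lysosomal regulator TFEB and many other factors, were in the window of 8 of 16 lysosomal genes (50.0%), beside 11.5% of the tested genes with a window and 8.09% of all 27025 genes with one. Of these 8, only Ctsa and Ctsd did not overlap, so the share describes the list and not the difference between groups.

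Metabolic lists differed by little. Fatty acid oxidation genes were higher for 15 of 17 (median 0.088), and their mean separated the groups by a narrow gap, at 10.643, 10.698 and 10.683 against 10.764, 10.763 and 10.755. The 3 members without overlap (17.6%, beside 6.31% of all genes tested) were Acaa2, the thiolase of the last step, at 0.23 (SE 0.08), Cpt1a, which admits fatty acids to mitochondria, at 0.20 (SE 0.07), and Acadvl at 0.14 (SE 0.06). Members at an unadjusted p below 0.05 numbered 2, beside 4.75% of all genes, and 4 with the replicate block, beside 9.6%. Glycolysis genes were higher for 17 of 20 (median 0.084, and 0.044 without non-primed 1), with Gpi1 at 0.21, Aldoa at 0.18 and Pfkm at 0.16 without overlap (3 members, 15%), and 1 member at an unadjusted p below 0.05, or 4 with the block. HIF1A targets were higher for 15 of 20 (median 0.061, 0.037 without primed 3 and 0.107 with sample weights). In that list too 3 members (15%) did not overlap. Among them Slc2a1, the glucose transporter gene, stood at 11.02, 11.20 and 11.12 against 11.26, 11.26 and 11.30, a difference of 0.16 (SE 0.06), Ndrg1 was higher by 0.14 and Mxi1 by 0.05. Naive libraries lay below both groups for Slc2a1, at 10.08 to 10.74, and for the list mean, at 10.833 to 10.924 beside 11.365 to 11.487. Hif1a itself was lower by 0.15 (SE 0.10) with overlap. The letters ACGTG, the core of the hypoxia response element, were in the window of 13 of 16 of these targets (81.2%), beside 28.7% of the tested genes with a window and 21.8% of all 27025. Since the list is made of known targets, this share describes the list and not the difference between groups. Of the 13, only Slc2a1 and Mxi1 did not overlap.

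Genes of mTOR signalling had a median of 0.05, which was 0.028 without non-primed 3, 0.017 without primed 2 and 0.029 with sample weights, and 15 of 22 were higher. Mtor, the kinase itself, stood at 11.08, 11.12 and 11.06 against 11.18, 11.18 and 11.11, a difference of 0.07 (SE 0.05), and overlapped by 1 library. Of the 22, 3 (13.6%) were higher without overlap, beside 6.31% of all genes tested, and 1 (4.55%) lower, beside 5.24%. The 3 were Akt2, an upstream kinase, at 0.13 (SE 0.06), Mlst8, a subunit of the mTOR complexes, at 0.13 (SE 0.07), and Sesn2, a leucine-sensing inhibitor of the pathway, at 0.07 (SE 0.06), and the other was Rps6kb1, the S6 kinase, at -0.14 (SE 0.07).

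DNA replication and mitosis genes were lower in primed cultures for 24 of 25 members, with a median of -0.198 and 0 members without overlap. Kif11, a motor of the mitotic spindle, stood at 9.65, 9.90 and 9.48 in non-primed and at 9.52, 8.96 and 9.19 in primed libraries, a difference of -0.45 (SE 0.16), Bub1, a checkpoint kinase, differed by -0.37 and the cyclin Ccna2 by -0.36. The mean of the list was 9.638, 10.038 and 9.480 against 9.624, 9.457 and 9.455, so non-primed 2 stood apart, and without it the median was -0.034. It was -0.349 without non-primed 3.

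Genes of the histone clusters, a list made after the leading genes had been seen, stood lower in primed cultures with less dependence on 1 library. Their messages are made in S phase, when DNA is copied, and end in a stem loop in place of a poly(A) tail. Of 65 members 53 were tested, 49 were lower and 16 (30.2%) did not overlap, beside 5.24% of all genes. In limma 16 had an unadjusted p below 0.05, beside 4.75% of all genes. Both counts include the 4 leading histone genes, which had been taken for a small p without overlap. The list's median was -0.352, with a range of -0.434 to -0.235 when 1 library was left out. Hist1h4f (ENSMUSG00000069274, chromosome 13, 23551258 to 23551648), a gene of the core histone H4, stood at 8.33, 8.37 and 8.58 in non-primed and at 7.97, 8.01 and 7.89 in primed libraries, a difference of -0.47 (SE 0.10). Hist1h1d, of a linker histone, stood at 11.20, 11.09 and 10.98 against 10.62, 10.45 and 10.85. Hist1h4d was lower by 0.36 and Hist1h2ak by 0.47. The list's mean separated the groups, at 7.405, 7.370 and 7.374 against 7.194, 6.858 and 7.118, with primed 2 lowest. Naive means ranged over both groups, at 6.857 to 7.669. The part of cell division in these values was not tested. Histone genes are near copies, so single values are uncertain where reads are shared.

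A class of poorly characterised transcripts differed in the same direction. The annotation type TEC, for transcript models that still await experimental evidence, had 587 tested members, of which 88 (15%) were lower and 10 (1.7%) higher without overlap, with a median of -0.115. Protein-coding genes showed 4.89% and 6.63%, with a median of 0.003. The mean of TEC transcripts was 4.589, 4.540 and 4.554 in non-primed and 4.558, 4.383 and 4.381 in primed libraries, so primed 2 and primed 3 were low and primed 1 was inside the non-primed range. This type was looked at after the histone values were seen, and its part in the histone result was not tested.

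**Figure D4:**
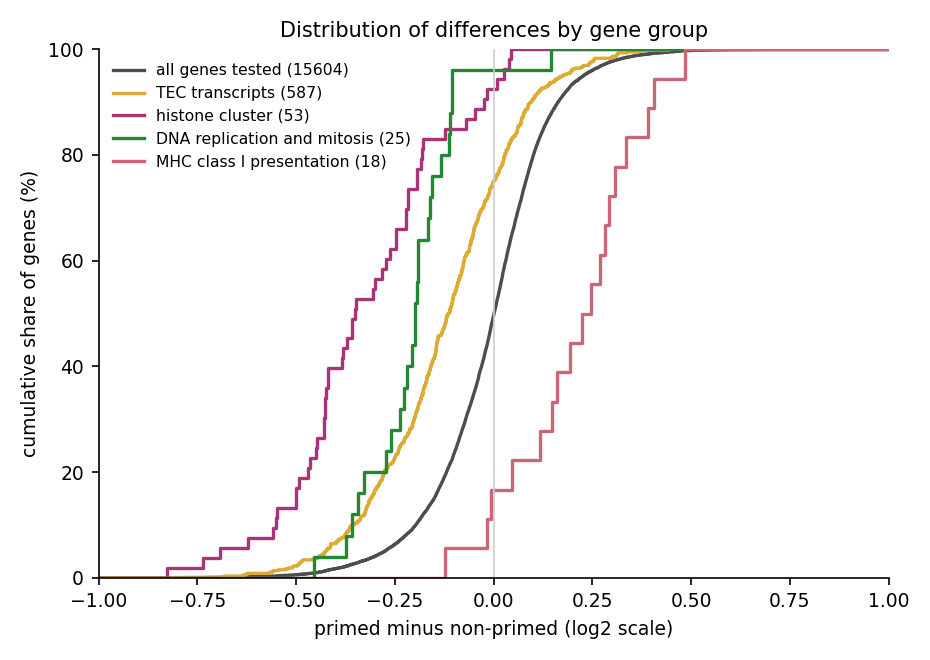
Cumulative share of genes (vertical, percent) by primed minus non-primed difference (horizontal, log2 scale) for all 15604 genes tested, 587 TEC transcripts, 53 histone cluster genes, 25 replication and mitosis genes and 18 MHC class I genes. The histone line lies furthest left, with a median of -0.352, and the MHC class I line furthest right, with a median of 0.234. The histone and TEC groups were chosen after values had been seen.

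Immediate early genes, which are switched on within minutes of a stimulus and also by handling of cells, were lower for 18 of 21 members, with a median of -0.304, and -0.109 without primed 1, -0.48 without primed 3 and 0.083 with sample weights. Egr1 stood at 9.99, 9.79 and 10.09 in non-primed and at 8.43, 9.05 and 9.90 in primed libraries, a difference of -0.83 (SE 0.33), and Fos at 9.74, 9.06 and 9.81 against 7.43, 8.29 and 10.16. Primed 1 was lowest in both and primed 3 was level with the non-primed libraries or above them. Among the 21 members 2 (9.52%), Egr3, at -0.37, and Klf2, at -0.52, were lower without overlap, beside 5.24% of all genes tested. With the replicate block the members at an unadjusted p below 0.05 numbered 5, beside 9.6% of all genes, against 2 without it. The list mean was 9.231, 9.010 and 9.299 against 8.453, 8.798 and 9.379.

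Cholesterol synthesis genes were lower for 21 of 23 members (median -0.207), with 0 members without overlap. Their mean was 9.512, 9.241 and 9.401 in non-primed and 9.605, 8.883 and 9.052 in primed libraries, so primed 1 was the highest of the 6 and primed 2 the lowest. Cyp51, which demethylates lanosterol, stood at 10.83, 10.40 and 10.77 against 10.79, 9.85 and 10.21, a difference of -0.39 (SE 0.24). The median was -0.071 without primed 2, -0.343 without primed 1 and -0.38 with sample weights, and 6 members had an unadjusted p below 0.05 with the replicate block, beside 9.6% of all genes, against 0 without it. Searched in the same windows, the letters TCACNCCAC of the sterol regulatory element were in 1 of 15 cholesterol synthesis genes (6.7%). They were in 1.39% of the tested genes with a window. TCACCCCAC was also in 1 of 15, beside 0.681% of the tested genes with a window. All 7 tested mitochondrially encoded genes were lower (median -0.247, from -0.452 without primed 1 to -0.089 without primed 2), with mt-Nd2 at 10.08, 9.39 and 10.14 against 10.07, 8.78 and 9.48. The 20 nuclear genes of the respiratory chain had a median of 0.022.

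**Figure D5:**
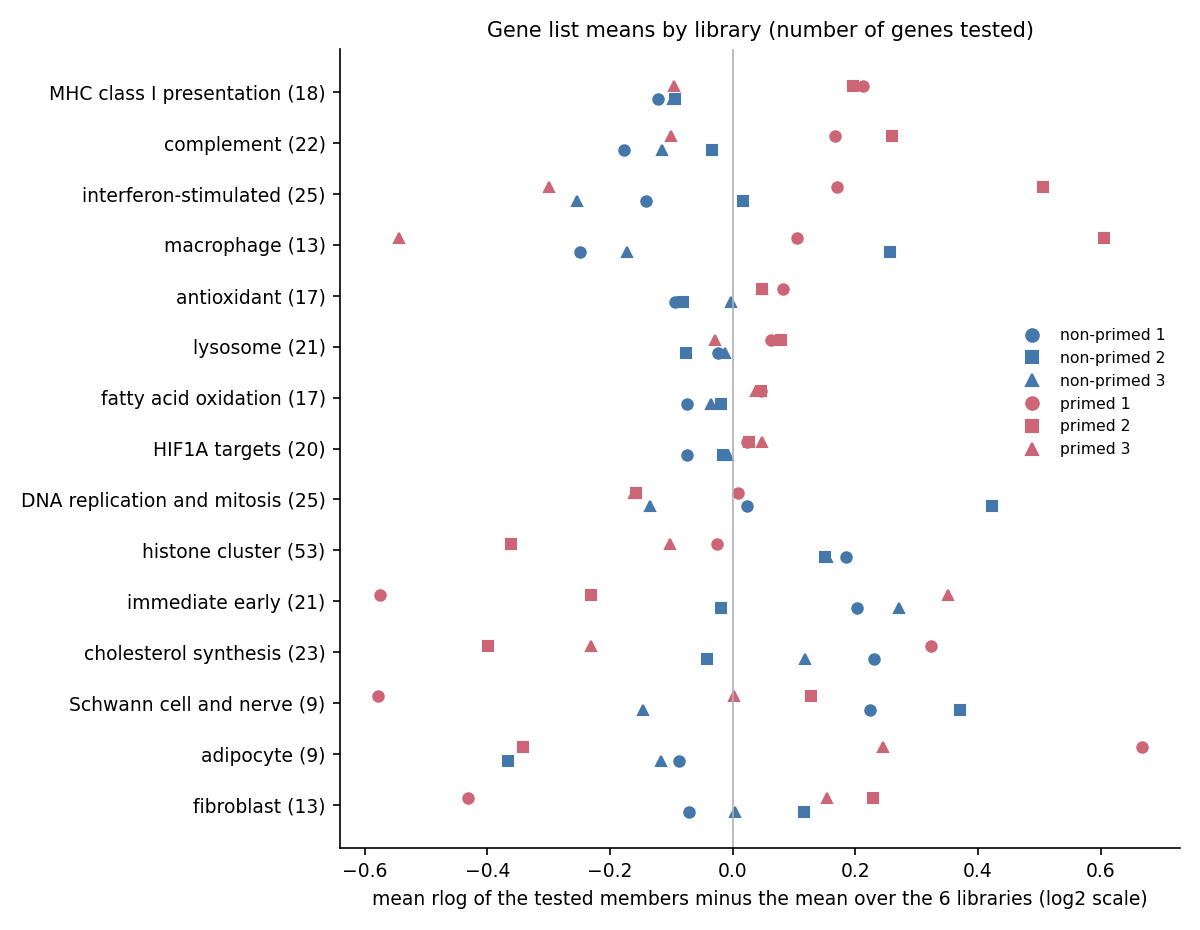
Mean rlog of the tested members of 15 gene lists in each library, minus the mean over the 6 libraries (horizontal, log2 scale), with blue for non-primed, red for primed and shapes for replicate numbers; the number after each name counts tested genes. The groups separate for the antioxidant, fatty acid oxidation, HIF1A target and histone lists, and primed 3 lies with or below the non-primed libraries for the MHC class I, interferon-stimulated and macrophage lists. The histone list was made after the leading genes had been seen, so its separation is no independent result.

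Among lists of tissue breakdown and inflammation, matrix proteases and inhibitors held 3 members that separated the groups. The inflammasome, chemokine, cytokine and NF-kB lists held at most 1 each. Of matrix proteases and their inhibitors 8 of 19 were higher (median -0.029) and 3 (15.8%) did not overlap, beside 6.31% of all genes tested. Mmp2, which encodes gelatinase A, stood at 15.29, 15.20 and 15.28 against 15.60, 15.58 and 15.51, a difference of 0.30 (SE 0.09), and its inhibitor Timp2 at 14.60, 14.54 and 14.61 against 14.93, 14.84 and 14.70, a difference of 0.24 (SE 0.09). The third was Mmp23, at a difference of 0.16 (SE 0.07). Mmp3 differed by 0.27 (SE 0.32) and Mmp13 by -0.03 (SE 0.18), both with overlap. The inflammasome list had 8 of 14 higher and a median of 0.003, with its sensor Nlrp3 at 5.25, 6.30 and 5.18 against 5.35, 6.57 and 5.14 and Casp1 at a difference of -0.02 (SE 0.20). Of 17 chemokine genes 12 were higher (median 0.092) and 0 separated the groups, and Cxcl1 and Ccl2 differed by 0.03 (SE 0.16) and 0.09 (SE 0.21). Il6 stood at 6.82, 6.93 and 7.60 against 5.67, 6.67 and 7.34, a difference of -0.56 (SE 0.42). Of 19 genes of inflammatory cytokines and receptors 8 were higher (median -0.021), and 1 (5.26%) separated the groups, the macrophage growth factor gene Csf1 at 0.12 (SE 0.06). Of 15 NF-kB and feedback genes 12 were higher (median 0.06), and 1 (6.67%) separated the groups, Birc3 at 0.16 (SE 0.07). The lubricin gene Prg4 differed by -0.03 (SE 0.29) and Thy1, which marks the fibroblasts beneath the lining, by 0.0046 (SE 0.16). The lining and sublining lists had medians of -0.04 and 0.006. Npy, at 0.31 (SE 0.25), Esm1, at 0.23 (SE 0.27), and Ldha, at 0.06 (SE 0.08), overlapped, and Xist, below the filter, lay at 0.88 to 1.27.

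Single genes of other lists separated the groups. For the Hox, Wnt, TGF-beta and chromatin lists their shares lay below those of all genes tested, 6.31% higher and 5.24% lower. Of 16 clock genes 11 were higher (median 0.067), 3 (18.8%) without overlap beside 6.31% of all genes tested, and 1 (6.25%) was lower without overlap beside 5.24%. Per2 stood at 7.81, 7.78 and 7.79 against 8.29, 8.14 and 7.94 (difference 0.33, SE 0.11) and Cry2 at a difference of 0.28 (SE 0.10). Both encode repressors of the clock. Tef, an output factor, was higher by 0.09 (SE 0.05), and Clock, an activator, stood at 10.93, 10.80 and 10.88 against 10.72, 10.52 and 10.67 (difference -0.23, SE 0.07). Of the Hox genes, which keep a record of position along the limb, Hoxa11 differed by 0.23 (SE 0.06) and Hoxd11 by -0.29 (SE 0.11). Of 22 in the list 10 were higher (median -0.007), and 1 (4.55%) was higher and 1 (4.55%) lower without overlap. Wnt10b, a Wnt ligand, was at 4.84, 5.08 and 4.64 against 4.14, 4.49 and 4.29, a difference of -0.54 (SE 0.16). Of 24 Wnt genes 15 were higher (median 0.079), and 1 (4.17%) was higher and 1 (4.17%) lower without overlap. Id2, a target of BMP signals, differed by 0.36 (SE 0.11) and Tgfbi, a matrix protein gene named for its induction by TGF-beta, by -0.54 (SE 0.24). Of 23 genes of TGF-beta, activin and BMP signals 9 were higher (median -0.019). In that list 1 (4.35%) was higher and 1 (4.35%) lower without overlap. Of 23 chromatin and DNA methylation genes 18 were lower (median -0.039), 1 (4.35%) higher and 1 (4.35%) lower without overlap. These were Ezh1 and Ezh2, alternative catalytic subunits of the complex that places the repressive H3K27 mark. They differed in opposite directions, by 0.18 (SE 0.07) and -0.23 (SE 0.10). Ezh2 is also known to be higher in dividing cells, and the part of cell division in its difference was not tested.

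Markers of other cell types were compared because the cultures could hold such cells. The 9 tested adipocyte genes were all higher (median 0.337, from 0.192 without primed 1 to 0.575 without primed 2, and 0.224 without non-primed 2), with 0 members without overlap, and their means were 8.186, 7.907 and 8.157 against 8.940, 7.931 and 8.518, so primed 1 was highest. Of 9 Schwann cell and nerve genes 8 were lower (median -0.352, from -0.569 without primed 2 to -0.07 without primed 1), and their mean was lowest in primed 1, at 8.276, beside 8.707 to 9.224 in the other 5 libraries. The fibroblast mean was also lowest in primed 1, at 14.045 beside 14.404 to 14.704, with Col1a1 at 13.82, 14.11 and 13.89 against 13.05, 13.87 and 13.55. Fbln1, which encodes the matrix protein fibulin 1, was the 1 fibroblast marker (7.69%, beside 6.31% of all genes tested) that separated the groups. It stood at 12.03, 11.72 and 12.08 against 12.19, 12.19 and 12.24, a difference of 0.26 (SE 0.10). Of the 13 fibroblast genes 9 were lower, and their median was -0.034 and turned to 0.202 without primed 1, 0.01 without non-primed 2 and 0.211 with sample weights. Of 7 keratinocyte and epithelial genes 3 were higher and 4 lower (median -0.023), with Dsp, of the desmosome, higher by 0.22 (SE 0.17) with overlap, and 2 (28.6%) were lower without overlap beside 5.24% of all genes tested. Krt7 stood at 5.66, 5.71 and 5.89 against 4.51, 5.40 and 5.37, and Perp at 9.49, 9.10 and 8.96 against 8.92, 8.54 and 8.86, differences of -0.66 (SE 0.25) and -0.41 (SE 0.16). Krt7 in naive cultures lay at 3.94 to 4.21, below all 6 injected ones.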

How the data were processed

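RNA was measured by sequencing in 9 libraries, of which 3 primed and 3 non-primed ones were compared. Per the submitters' processing notes, the authors' tools were Subread 1.6.1 (featureCounts), STAR 2.5.4a, cutadapt 2.5 and DESeq2, on the genome GRCm38. The sources used here do not state the annotation release, the strandedness of the counting or how the transformation was set. The authors deposited rlog values, a log2 scale that corrects for depth and draws genes with few reads towards their mean, which understates their differences. Depth is unknown, so precision is that of 3 libraries a group.

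The table held 47729 genes, of which 19972 stood at 0 in all 9 libraries, and 12153 that varied were removed by the filter on a mean of 3 over the 6 libraries. Symbols matched 47224 identifiers. Coordinates are those of GENCODE M21 and promoter windows those of RefSeq. The 15604 genes left were fitted with limma 3.58.1 in R 4.3.3, with 1 mean per group, a variance trend, two-sided tests and Benjamini-Hochberg adjustment at 0.05. With 3 libraries a group the smallest exact two-sided p is 0.1, so genes without overlap were counted. The fit was also run on simulated data with independent noise and planted differences as large as or larger than nearly all those found. That run does not show how small differences, or libraries that share structure, would fare.

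The comparison and the 52 gene lists (831 genes, 830 matched, 3 through synonyms) were chosen with earlier results of these data known, the histone list after its values were seen. Named genes are, per direction, the 12 smallest p-values without overlap (predicted genes and pseudogenes skipped), up to 4 members of a list with the smallest p-values, and 20 fixed genes. Other genes named were chosen after their values were seen: Agt and Znf41-ps for their size, C4a as a near copy, and further members of the lists, most of them without overlap or as examples of a list or a cell type.

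The design text says that numbers need not identify a mouse. Deviations from group means correlated at 0.417, 0.608 and 0.103 for pairs 1 to 3, each above 0.1, so the libraries were treated as possibly paired, although non-primed 3 correlated more with primed 1, at 0.274. Alternatives were other filters, variance priors and scalings, all 9 libraries in the fit, the replicate block, sample weights, a macrophage covariate and leaving out each library.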

Additional observations from a re-analysis of the deposited data

How the results depend on the processing

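The libraries number 3 a group and their depth is unknown, so differences that are small against the spread, or that belong to weakly expressed genes, could not be resolved. The 0 genes past the adjusted threshold stayed 0 under every alternative except sample weights, where 2807 passed. Those weights rest mainly on non-primed 1 and primed 3. At an unadjusted p below 0.05 the 741 genes became 1184 with no filter, 200 with all 9 libraries in the fit, 5807 with sample weights and 281 (without non-primed 1) to 1606 (without primed 1) when 1 library was left out, or 405 without non-primed 3. With the replicate number as a block they became 1498, and the block changed no call past the adjusted threshold. Leaving out 1 library gave 1337 to 2274 genes higher without overlap and 1127 to 2166 lower, where fewer samples make separation easier, and 1292 were lower with no filter. Counts without overlap do not depend on the model, so alternatives of the fit do not apply to them.

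With sample weights the medians became 0.107 for HIF1A targets, 0.083 for immediate early genes, 0.071 for MHC class I and 0.029 for mTOR genes. Leaving out 1 library gave medians of -0.052 (primed 2) to 0.381 (primed 3) for complement, 0.024 (primed 2) to 0.108 (primed 3) for lysosome and 0.017 (primed 2) to 0.056 (non-primed 2) for mTOR genes. The cause of these changes was not tested.

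Of 1963 values of 123 named genes under 16 alternatives, 1853 kept their direction and side of the threshold, 66 passed the threshold, all 66 with sample weights, and 44 turned in sign, each in a gene whose groups overlapped. With sample weights the differences were -0.062 for C1qa, -0.14 for C1qc, -0.258 for C3ar1, 0.197 for Fos, 0.009 for Hif1a, 0.312 for Il6, 0.287 for Mmp13, -0.048 for Mmp3, -0.05 for Nlrp3, -0.205 for Npy, 0.398 for Prg4 and -0.019 for Psmb9. With the macrophage covariate they were -0.031 for C3ar1, -0.043 for Nlrp3, 0.026 for Prg4 and -0.034 for Thy1, and with quantile normalization 0.005 for Casp1 and -0.015 for Thy1. Leaving out 1 library gave ranges of -0.015 to 1.926 for Agt, -0.218 to 0.544 for C1qa, -0.148 to 0.644 for C1qb, -0.136 to 0.565 for C1qc, -0.143 to 0.382 for C3ar1, -0.137 to 0.569 for C5ar1, -0.187 to 0.185 for Casp1, -0.117 to 0.269 for Ccl2, -0.14 to 0.186 for Cxcl1, -0.028 to 0.398 for Esm1, -0.152 to 0.138 for Mmp13, -0.062 to 0.497 for Mmp3, -0.332 to 0.474 for Nlrp3, -0.244 to 0.233 for Prg4 and -0.143 to 0.126 for Thy1.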

Other observations

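Some lists outside the comparisons above held single genes without overlap. Among 12 hyaluronan genes (median -0.028, 5 higher) 1 (8.33%) was higher and 1 (8.33%) lower without overlap, beside 6.31% and 5.24% of all genes tested. Hyal1, a hyaluronidase gene, stood at 8.75, 8.56 and 8.68 in non-primed and at 8.91, 8.89 and 8.82 in primed libraries, and Vcan, the large proteoglycan versican that binds hyaluronan, at 13.49, 13.41 and 13.66 against 12.66, 13.38 and 13.28. Primed 1 was the lowest for Vcan and the other primed libraries lay just under the non-primed range. Eif2s3y, a Y-linked translation factor gene, stood at 10.46, 10.49 and 10.68 against 10.23, 10.29 and 10.35. Lists with 0 members without overlap were growth factors (24 tested, median 0.033), prostaglandin genes (15 tested, median 0.049), purine and urate genes (11 tested, median 0.061) and contractile myofibroblast genes (17 tested, median -0.042). For 25 cytosolic ribosomal protein genes the median was -0.008, and for 19 genes of the unfolded protein and integrated stress response, of which 14 were lower, it was -0.045. None of the genes in these lists had an adjusted p below 0.05 in limma.

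Angptl4, a lipase inhibitor gene that responds to fatty acids and low oxygen and was chosen after its values were seen, stood at 12.42, 12.76 and 12.81 in non-primed and at 12.83, 13.38 and 13.17 in primed libraries, a difference of 0.46 (SE 0.16). With the replicate number as a block the SE was 0.07 (adjusted p = 0.483). Pdk4, a kinase that limits the use of glucose in mitochondria, was chosen in the same way and stood at 8.65, 9.25 and 8.75 against 9.22, 9.60 and 9.29, with overlap by 1 library and a difference of 0.49 (SE 0.18). In both genes each primed library lay above the non-primed library of the same number, but the numbers need not identify a mouse. The share of all genes with this order was not counted, so for genes chosen by their values it is a description only.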
